A study of Mus musculus with 2 samples.

Results

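Collagen genes were followed across the cell classes of interscapular brown adipose tissue (BAT) in single-nucleus RNA-seq of 2 libraries. The members were the genes whose symbol reads Col, a chain-type number, a and a chain number, with at least 50 unique molecular identifiers (UMIs, counted RNA molecules) over both libraries. They came to 39 of the 44 collagen symbols and of the 32285 genes in the matrices. The 5 symbols below the minimum were Col6a4 with 35 UMIs, Col22a1 with 20, Col2a1 with 19, Col9a1 with 9 and Col9a2 with 3, while the members nearest to it were Col8a2 with 55, Col17a1 with 64 and Col26a1 with 75. The WT library came from BAT of 8-week-old Srsf1 flox/flox mice and the KO library from 8-week-old mice that also carried Adipoq-Cre, a Cre driven by the promoter of adiponectin, which is made by adipocytes. Both groups thus carried the floxed alleles, and only the KO group carried the recombinase. The study's methods name male mice, and how many animals were pooled is not given in the sources used here.

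Collagens are helical trimers that build the matrix around cells. Fibrillar chains (types I, III, V, XI, XXIV and XXVII here) form or seed the fibrils of connective tissue, and in fat they are made mainly by stromal precursors. Type IV chains form the network of basement membranes, the thin sheets that wrap adipocytes, vessels and Schwann cells. The multiplexins (types XV and XVIII) tie basement membranes to the matrix around them, type VI makes beaded filaments, and FACIT chains (types IX, XII, XIV, XVI, XIX and XX here) sit on the surface of fibrils.

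The WT library held 93102814 UMIs in 12846 barcodes and the KO library 80090208 UMIs in 11495, with 12771 and 11378 nuclei left after filters, and 52 barcode sequences occurred in both libraries. Over all barcodes the median mitochondrial share was 1.10% in WT and 0.0491% in KO, and the smallest barcode held 750 and 500 UMIs. The part of these differences in the KO to WT ratios was not tested. Nuclei were given a class from summed marker genes that include no collagen, and the classes are called "-like" for that reason. Among precursors, ASC-like nuclei carried Dpp4 and Pi16, Areg-like nuclei Epha3 and Vit, and PreA-like nuclei Cyp7b1 and Frem1. The WT and KO libraries gave 112 and 680 ASC-like, 49 and 125 Areg-like, 68 and 435 PreA-like, 373 and 192 mural-like, 2678 and 1121 endothelial-like, 84 and 25 Schwann-like and 3643 and 2389 adipocyte-like nuclei. No class was given to 4832 WT and 2412 KO nuclei (37.8% and 21.2% of those kept). A further 147 WT and 331 KO precursor nuclei took no subtype. Levels are UMIs of a gene per 1000000 UMIs of the class (CPM), from 3′ tags that are not divided by gene length. They therefore compare a gene between classes or libraries, not different genes with each other. With 1 library per genotype there is no test between genotypes. Intervals are 95% (exact Poisson for a level, exact binomial for a share or a ratio), cover counting error only, and say nothing of the spread between mice.

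Srsf1, the targeted gene, stood at 185 CPM in WT and 61.6 CPM in KO adipocyte-like nuclei (log2 ratio of KO to WT -1.58, interval -1.67 to -1.50). Its level was also lower in the KO library in classes that Adipoq-Cre should not reach, with 138 and 86.5 CPM in endothelial-like and 110 and 64.8 CPM in immune-like nuclei, and whether the counted tags lie in the deleted part was not tested. Markers of one class were also counted in the others. All 9 adipocyte markers were detected in immune-like nuclei, where they summed to 3421 CPM in WT and 1266 CPM in KO, against 13381 and 11123 CPM in adipocyte-like nuclei, with Pparg the most abundant. Immune cells make little fibrillar collagen, so the level of a chain in immune-like nuclei is given below as a background. There Col3a1 stood at 69.3 CPM in WT and 115 CPM in KO, and Col4a1 at 129 and 111 CPM.

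The class with the highest level of a member was in most cases a precursor, mural-like or Schwann-like one. Of the 39 members, 25 had their highest level in the same class in both libraries. PreA-like nuclei were the highest class for 9 members in WT and 11 in KO, 8 of them in both, including Col4a1, Col4a2, Col5a2, Col5a3, Col6a3 and Col15a1. Mural-like nuclei held 6 in WT and 5 in KO, 5 of them in both, and Schwann-like nuclei held 11 in WT and 5 in KO, 4 of them in both. Adipocyte-like nuclei were the highest class for 1 member in WT and 3 in KO, with none in common. Some of these rest on few UMIs, with 1 UMI for Col17a1, 4 for Col7a1 and 5 for Col11a2 in WT Schwann-like, 1 for Col9a3 and 6 for Col24a1 in KO Schwann-like and 1 for Col17a1 in KO adipocyte-like nuclei.

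**Figure D1:**
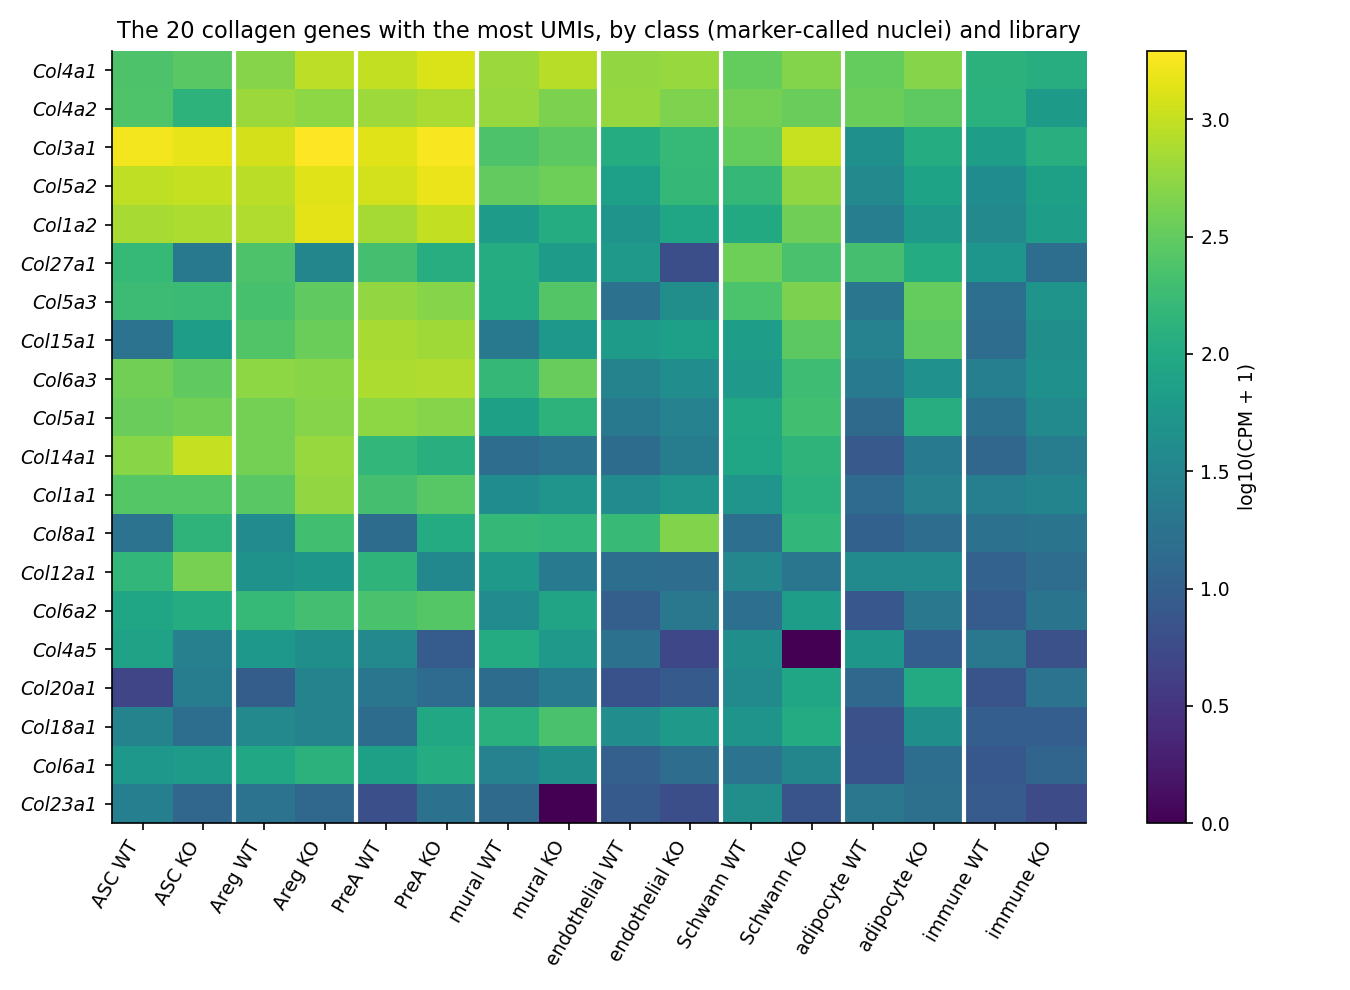
Levels of the 20 members with the most UMIs (rows) in each class and library (columns), coloured by log10(CPM + 1). Fibrillar chains such as Col3a1 are brightest in the ASC-, Areg- and PreA-like columns, Col4a1 and Col4a2 are present in every class, and Col5a3 and Col15a1 are brighter in the KO than in the WT adipocyte-like column.

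Sequences are shown for the promoters of Col5a3 and Col15a1, the members with the largest KO to WT ratios in adipocyte-like nuclei, and for the gap between Col4a4 and Col4a3, a pair that starts 72 bases apart on opposite strands and whose balance differed most between the libraries in those nuclei. They are from RefSeq on GRCm38.p6 and run 5′ to 3′ on the strand of the named gene, or of Col4a4 for the gap. The 250 bases before the RefSeq start of Col5a3 lie at chr9:20815068-20815317 on the minus strand and those of Col15a1 at chr4:47207762-47208011 on the plus strand. In the annotation used for gene places Col15a1 starts at 47208161, past the end of its window, and the bases between were not searched. The gap of 71 bases lies at chr1:82586850-82586920, and none of the 3 windows overlaps an annotated exon. Capitals mark CCAAT and GGGCGG on either strand.
Col5a3: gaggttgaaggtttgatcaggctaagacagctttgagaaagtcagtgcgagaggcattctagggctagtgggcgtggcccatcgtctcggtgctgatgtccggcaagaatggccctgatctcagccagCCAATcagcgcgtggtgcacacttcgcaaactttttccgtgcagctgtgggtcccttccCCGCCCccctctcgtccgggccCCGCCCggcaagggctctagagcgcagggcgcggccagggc
Col15a1: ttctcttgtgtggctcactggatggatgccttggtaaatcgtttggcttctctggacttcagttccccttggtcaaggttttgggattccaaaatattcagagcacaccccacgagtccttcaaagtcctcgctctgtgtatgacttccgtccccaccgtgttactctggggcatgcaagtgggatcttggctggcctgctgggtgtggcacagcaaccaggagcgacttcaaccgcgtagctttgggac
Col4a4 to Col4a3: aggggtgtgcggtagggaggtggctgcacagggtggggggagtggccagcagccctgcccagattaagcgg

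The motifs searched on both strands were the CCAAT box, the core GGGCGG of the box bound by Sp1, the promoter element TATAAA and the spaced direct repeat bound by PPAR with RXR. The Col5a3 window held 1 CCAAT and 2 GGGCGG that do not overlap, and the Col15a1 window and the gap held no match to any of the 4. Of 32851 RefSeq promoter windows of 250 bases, 33.8% held CCAAT, 32.7% GGGCGG, 12.4% TATAAA and 0.0335% the repeat. Promoters were at hand for 32 members, with 34 windows, of which 11 held CCAAT, 20 GGGCGG, 5 TATAAA and 0 the repeat. These matches describe letters in a window and not binding.

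In precursors, fibrillar chains gave over 54% of the collagen UMIs in each subtype and library, and single chains separated the subtypes. Col3a1, the type III chain, stood at 1695 CPM in WT and 1471 CPM in KO ASC-like nuclei, at 1206 and 1961 CPM in Areg-like nuclei and at 1337 and 1796 CPM in PreA-like nuclei. The KO level was thus lower in ASC-like nuclei (log2 ratio -0.20, interval -0.29 to -0.12) and higher in Areg-like (0.70) and PreA-like nuclei (0.43, interval 0.29 to 0.56), where Leiden clusters in place of marker sums gave -0.15. Col1a1, a chain of type I collagen, stood at 267 and 268 CPM in ASC-like, 280 and 580 CPM in Areg-like and 210 and 276 CPM in PreA-like nuclei. Its log2 ratio was 1.05 (interval 0.67 to 1.45) in Areg-like nuclei, from 66 and 385 UMIs, and 0.01 (interval -0.21 to 0.23) in ASC-like nuclei.

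Col5a2 and Col1a2, the other abundant fibrillar chains, were likewise higher in KO in Areg-like and PreA-like nuclei. Col5a2, a type V chain, stood at 958 and 1011 CPM in ASC-like, 900.0 and 1373 CPM in Areg-like and 1173 and 1566 CPM in PreA-like nuclei, with log2 ratios of 0.08 (interval -0.04 to 0.19), 0.61 and 0.42. Col1a2, the second chain of type I collagen, stood at 733 and 762 CPM, 785 and 1435 CPM and 713 and 976 CPM in the same order. Col5a1 stood at 349 and 390 CPM in ASC-like nuclei (0.16, interval -0.03 to 0.36). Of other families, Col6a3, a type VI chain, stood at 764 and 802 CPM and Col4a4 at 69.96 and 51.1 CPM in PreA-like nuclei, and Col4a2 at 628 and 532 CPM and Col6a6, another type VI chain, at 97.6 and 93.5 CPM in Areg-like nuclei, each with an interval of its ratio that holds 0. With Leiden clusters the Areg-like ratio of Col3a1 was 2.17, that of Col14a1 3.37 and that of Col4a1 -0.07.

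Col15a1, which anchors basement membranes, followed a steep order across the subtypes in both libraries. It stood at 17.1 CPM in WT and 69.3 CPM in KO ASC-like nuclei, at 250.5 and 351 CPM in Areg-like nuclei and at 729 and 657 CPM in PreA-like nuclei. The WT ASC-like level rests on 13 UMIs and was near the WT immune-like level of 14.25 CPM. Ratios against it thus start from a background level. The log2 ratio of PreA-like to ASC-like nuclei was 5.41 (interval 4.62 to 6.34) in WT and 3.25 (interval 3.06 to 3.44) in KO. Col4a1 had the same order, with 237 and 282 CPM, 501 and 920 CPM, and 974 and 1259 CPM. Col14a1, a FACIT chain that decorates fibrils, had the opposite order, from 503 CPM in WT and 996 CPM in KO ASC-like nuclei through 403 and 612 CPM in Areg-like nuclei to 151 and 117 CPM in PreA-like nuclei. The PreA-like log2 ratio of Col14a1 was -0.37, and 0.42 with a lead of 4 in the class call, and that of Col15a1 in ASC-like nuclei was 2.02, and 2.79 with that lead.

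Col12a1, another FACIT chain, was the member at least 2-fold apart in opposite directions among the subtypes with intervals clear of 0. ASC-like nuclei had 151 CPM in WT (115 UMIs) and 409 CPM in KO (1518 UMIs), a log2 ratio of 1.44 (interval 1.16 to 1.72), whereas PreA-like nuclei had 137 CPM (51 UMIs) and 33.3 CPM (103 UMIs), a log2 ratio of -2.04 (interval -2.54 to -1.53). In WT the level hardly differed between those subtypes (log2 ratio of PreA-like to ASC-like nuclei -0.14, interval -0.65 to 0.35) and in KO it was far lower in PreA-like nuclei (-3.62, interval -3.92 to -3.33). With a lead of 4 in the class call the Col12a1 ratio in PreA-like nuclei was -0.35, from 3 and 26 UMIs, and with Leiden clusters in place of marker sums it was -1.77. A lead of 4 kept 30 of 68 WT PreA-like nuclei but 3 of their 51 Col12a1 UMIs. The WT PreA-like level, and its closeness to the ASC-like level, thus rest mostly on nuclei that this lead left out. Col8a1, a short network-forming chain of vessel walls, was higher in KO in all 3 subtypes, with 17.1 CPM in WT and 138 CPM in KO ASC-like, 38.2 and 199 CPM in Areg-like and 13.5 and 106 CPM in PreA-like nuclei. The WT values rest on 13, 9 and 5 UMIs, and immune-like nuclei had 15.96 and 17.2 CPM, so the WT level in ASC-like and PreA-like nuclei was near or below that background. With Leiden clusters the Col8a1 log2 ratio in ASC-like nuclei was 0.86, from 58 and 683 UMIs, in place of 3.01, and in PreA-like nuclei 1.66 in place of 2.98, while with a lead of 4 in the class call it was 1.15 in Areg-like nuclei in place of 2.38.

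**Figure D2:**
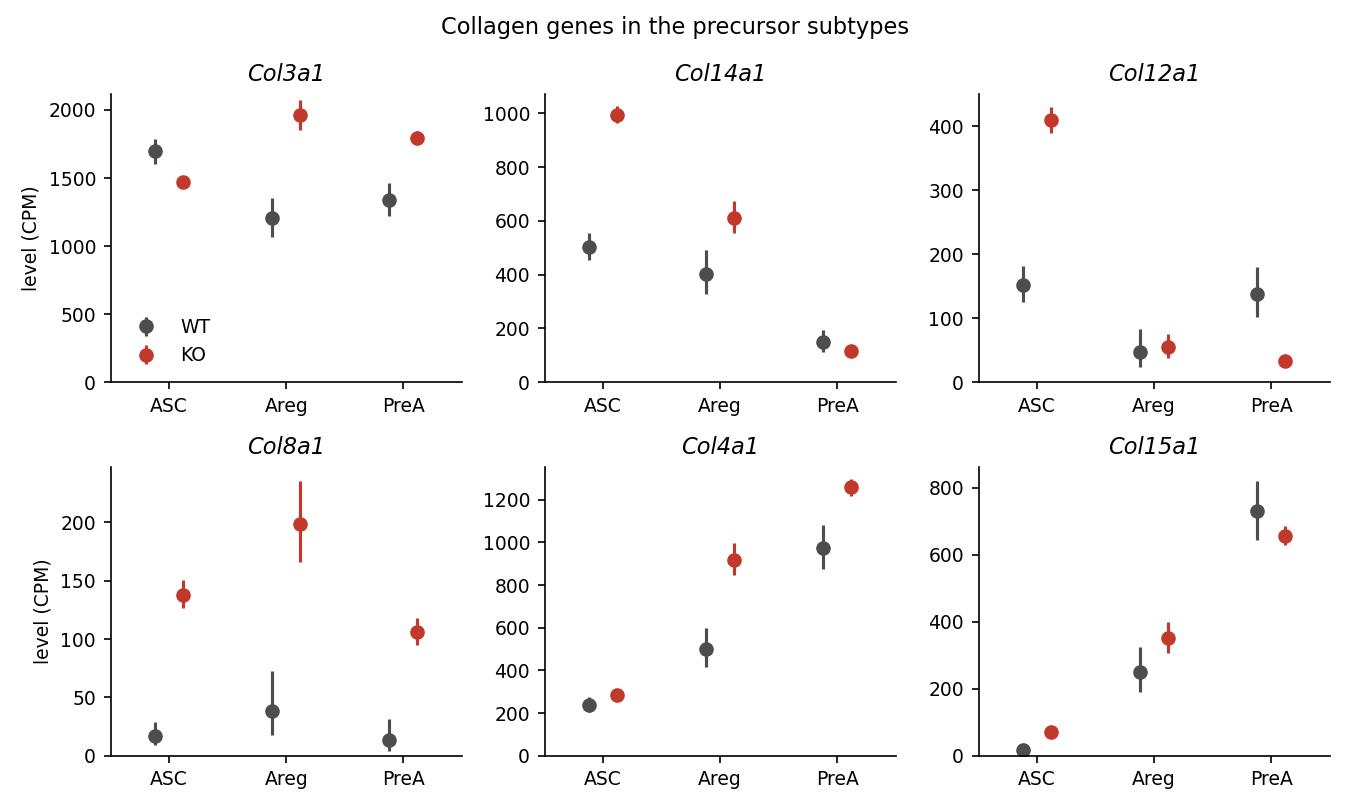
Level in CPM (y axis) of 6 members in the 3 precursor subtypes (x axis), with the 95% Poisson interval of each level as a bar. Col15a1 and Col4a1 climb from ASC to PreA, Col14a1 declines, Col8a1 is higher in KO at each subtype, and Col12a1 is higher in KO in ASC and lower in KO in PreA.

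Col27a1, a fibrillar chain of cartilage and other connective tissue, was lower in KO throughout, at 158 and 20.8 CPM in ASC-like, 233 and 31.7 CPM in Areg-like and 210 and 113 CPM in PreA-like nuclei. Immune-like nuclei had 53.3 CPM in WT and 14.4 CPM in KO. With Leiden clusters the Col27a1 log2 ratio was -2.08 in ASC-like nuclei in place of -2.93 and -1.87 in Areg-like nuclei in place of -2.88. Among the less abundant members, Col18a1, whose cleaved end is endostatin, was at 13.5 CPM (5 UMIs) in WT and 93.8 CPM in KO PreA-like nuclei, a log2 ratio of 2.80 that was 0.05 with Leiden clusters (38 and 578 UMIs). Col4a5, a type IV chain, was at 78.9 and 26.1 CPM in ASC-like nuclei. Col20a1, a FACIT chain, had 3.95 CPM in WT (3 UMIs) and 23.7 CPM in KO ASC-like nuclei, and Col23a1, a transmembrane chain, had 19 and 42 UMIs there, a log2 ratio of -1.14, and 2 and 50 UMIs in PreA-like nuclei, where the interval of its ratio (-0.34 to 4.67) holds 0. Immune-like nuclei had Col20a1 at 6.27 CPM in WT and 16.8 CPM in KO, so its WT ASC-like level was below that background.

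Counted over members with at least 50 UMIs in a class, a KO level at least 2-fold higher was found for 4 of 23 members in ASC-like nuclei, where 7.25% of all genes with as many UMIs were that much higher, and a level at least 2-fold lower for 3, where the share of all genes was 10.4%. In Areg-like nuclei the counts were 2 higher and 1 lower of 18 members (7.44% and 6.83% of all genes), and in PreA-like nuclei 3 higher and 1 lower of 22 (8.86% and 7.96%). The median log2 ratio of the members was 0.06, 0.51 and 0.25 in the same order, beside 0.04, 0.11 and 0.07 over all genes. The higher members were Col15a1, Col8a1, Col12a1 and Col20a1 in ASC-like, Col1a1 and Col8a1 in Areg-like and Col8a1, Col18a1 and Col23a1 in PreA-like nuclei, so that Col8a1 was the one member on all 3 lists. The lower ones were Col27a1, Col4a5 and Col23a1 in ASC-like, Col27a1 in Areg-like and Col12a1 in PreA-like nuclei. In each subtype the KO class held more UMIs than the WT class, so members high in KO reached the minimum more readily. Through KO alone it was reached in ASC-like nuclei by Col15a1 (13 and 257 UMIs), Col8a1 (13 and 512) and Col20a1 (3 and 88). The same held for Col8a1 (5 and 327), Col18a1 (5 and 290) and Col23a1 (2 and 50) in PreA-like nuclei. In Areg-like nuclei it held for Col8a1 (9 and 132), while Col27a1 (55 and 21) reached the minimum through WT alone.

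Summed over the fibrillar chains, the precursor subtypes were near each other and the genotypes differed by less than 2-fold. The fibrillar sum was 4347 CPM in WT and 4100 CPM in KO ASC-like nuclei, 4033 and 6185 CPM in Areg-like nuclei, and 4793 and 5716 CPM in PreA-like nuclei, with log2 ratios of -0.08 (interval -0.14 to -0.03), 0.62 (0.51 to 0.72) and 0.25 (0.18 to 0.32). The type IV sum was 586 and 469 CPM, 1384 and 1711 CPM, and 1763 and 2091 CPM, with log2 ratios of -0.32 (-0.47 to -0.17), 0.31 (0.13 to 0.49) and 0.25 (0.13 to 0.36). With Leiden clusters the type IV ratio in ASC-like nuclei was 0.056, and with a lead of 4 in the class call that in PreA-like nuclei was -0.10. Without the nuclei of the top 10% of doublet scores the fibrillar ratio in ASC-like nuclei was 0.009, and with Leiden clusters in place of marker sums it was -0.15 in PreA-like and 1.89 in Areg-like nuclei, a class that then held 790 WT nuclei.

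The immune marker list, with Dock2 the most abundant in KO, summed to 68.4 CPM in WT (8 of 10 genes detected, Skap1 and Itgax at 0) and 562 CPM in KO ASC-like nuclei (10 of 10), to 67.9 and 279 CPM in Areg-like nuclei and to 75.3 and 283 CPM in PreA-like nuclei. The adipocyte list ran the other way, at 3962 and 985 CPM in ASC-like nuclei, and the part of either in the collagen ratios was not tested.

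Mural-like nuclei, the pericytes and smooth muscle cells of vessels, carried both families and some chains of their own. Col13a1, a transmembrane chain, stood at 121 CPM in WT and 125 CPM in KO mural-like nuclei and at no more than 4.29 CPM in WT and 5.23 CPM in KO in any other class compared. Col19a1, a FACIT chain, stood at 141 and 116 CPM there and at no more than 19.3 and 1.66 CPM elsewhere. Col4a6, a type IV chain of smooth muscle and other basement membranes, stood at 59.8 CPM (89 UMIs) in WT and 19.5 CPM (14 UMIs) in KO, a log2 ratio of -1.62 (interval -2.54 to -0.79).

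Of 20 members with at least 50 UMIs in mural-like nuclei, 4 were at least 2-fold higher in KO, where 4.72% of all genes were, and 2 at least 2-fold lower, where 12.9% were, with a median log2 ratio of 0.37 beside 0.02 over all genes. The higher members were Col5a3 (105 and 259 CPM), Col15a1 (20.2 and 55.8 CPM), Col6a3 (156 and 336 CPM) and Col6a2 (38.3 and 82.3 CPM). Of these Col15a1 lay near its immune-like level of 14.25 and 42.4 CPM, where the log2 ratio was 1.57. The lower ones were Col4a6 and Col12a1, the latter at 58.5 and 22.3 CPM, a log2 ratio of -1.39 that was 0.25 with Leiden clusters. Col4a6 (89 and 14 UMIs) and Col12a1 (87 and 16) reached the minimum through WT alone. With a lead of 4 in the class call the ratio of Col15a1 was 0.24, from 13 and 8 UMIs, in place of 1.47, and that of Col5a3 0.97 in place of 1.30, both below 2-fold, while with Leiden clusters the ratio of Col5a3 was 2.13 and that of Col3a1 1.14 in place of 0.33. Col4a1 stood at 629 CPM in WT and 867 CPM in KO, whereas Col4a2 was lower in KO at 607 and 434 CPM (log2 ratio -0.49, interval -0.68 to -0.30), as was Col4a5 at 104 and 58.6 CPM (-0.83, interval -1.36 to -0.33). Col3a1 stood at 232 and 291 CPM, Col5a2 at 313 and 365 CPM and Col1a1 at 39.0 and 51.6 CPM. The fibrillar sum was 938 and 1273 CPM (log2 ratio 0.44, interval 0.32 to 0.56), and the type IV sum 1414 and 1390 CPM (-0.03, interval -0.13 to 0.09).

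In endothelial-like nuclei type IV chains gave 61.0% of collagen UMIs in WT and 45.1% in KO. Divided by gene body length the type IV share was 43% in WT and 30.6% in KO, beside fibrillar shares of 36.9% and 42.7%. Col4a1 stood at 570 CPM in WT and 608 CPM in KO, Col4a2 at 597 and 448 CPM, and Col15a1 at 63.7 and 70.4 CPM, a log2 ratio of 0.15 that was 1.02 with Leiden clusters (432 and 369 UMIs). Col8a1 stood at 165 CPM (1274 UMIs) in WT and 464 CPM (1331 UMIs) in KO, the highest of the classes compared in both libraries, with a log2 ratio of 1.49 (interval 1.38 to 1.60) against 0.11 in immune-like nuclei. Most endothelial nuclei of the libraries lay in different Leiden clusters, with 1524 and 764 WT against 10 and 2 KO nuclei in 2 of these and 24 WT against 1131 KO nuclei in another. For fibrillar chains the levels were nearer to that background, with Col3a1 at 108 and 161 CPM beside 69.3 and 115 CPM in immune-like nuclei, and Col5a2 at 70.8 and 153 CPM beside 39.3 and 73.2 CPM. Col1a1 stood at 38.3 and 51.6 CPM, beside 25.1 and 29.9 CPM. Col5a3 was at 16.3 and 41.5 CPM, beside 15.1 and 49.8 CPM in immune-like nuclei, and its log2 ratio of 1.34 was 2.62 with Leiden clusters (111 and 286 UMIs).

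In endothelial-like nuclei 5 of 21 members were at least 2-fold higher in KO and 2 lower, against 3.93% and 14.9% of all genes, and the median log2 ratio was 0.49 beside -0.05 over all genes. Besides Col8a1 the higher members were Col5a2, Col5a3, Col6a2 (8.95 and 19.5 CPM) and Col28a1 (16.5 and 34.5 CPM). Col6a2 lay near its immune-like level of 7.98 and 17.7 CPM, whereas Col28a1 lay above its own of 1.71 and 1.86 CPM. The lower ones were Col27a1, at 59.7 and 5.23 CPM, and Col4a5, at 15.95 and 4.18 CPM, both near or below their immune-like levels of 53.3 and 14.4 CPM and of 19.7 and 5.53 CPM. Col27a1 (460 and 15 UMIs) and Col4a5 (123 and 12) reached the minimum through WT alone. The Col27a1 log2 ratio of -3.51 was -1.35 with Leiden clusters. Col23a1 stood at 7.65 and 5.23 CPM (-0.55, interval -1.47 to 0.29). The fibrillar sum was 370 and 531 CPM (log2 ratio 0.52, interval 0.43 to 0.61) and the type IV sum 1192 and 1066 CPM (-0.16, interval -0.22 to -0.10).

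Schwann-like nuclei were the fewest of the 7 classes in the KO library, and those nuclei carried immune and precursor markers. Of the 25 KO nuclei, 68% were called doublets. The immune marker list summed to 1680 CPM in them (8 of 10 genes detected, Cd163 and Skap1 at 0, Dock2 the most abundant) against 247 CPM in WT. The precursor list summed to 1210 CPM in WT and 1655 CPM in KO Schwann-like nuclei, beside 114 and 230 CPM in immune-like nuclei. The ASC subtype list summed to 485 and 1064 CPM there, and the adipocyte list ran the other way, at 6618 and 2135 CPM. The part of these lists in the values below was not tested. Col11a1, a fibrillar chain that seeds thin fibrils, had 54 UMIs (116 CPM) in WT Schwann-like nuclei and 0 in KO, at least 6.2-fold lower against a floor of 3 UMIs over the KO class. In the other classes it did not pass 4.25 CPM in WT. Other chains with their highest WT level here were Col27a1 at 363 CPM, Col16a1 at 72.9 CPM (34 UMIs), Col24a1 at 45.1 CPM (21 UMIs) and Col28a1 and Col23a1, each at 40.8 CPM (19 UMIs). Col20a1 at 36.5 CPM (17 UMIs) and Col26a1 at 23.6 CPM (11 UMIs) were also highest here in WT. So were Col7a1, Col11a2 and Col17a1, from the few UMIs given above.

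In KO Schwann-like nuclei Col3a1 stood at 1033 CPM against 324 CPM in WT, Col5a2 at 554 against 154 CPM, Col1a2 at 380 against 98.7 CPM and Col15a1 at 292 against 66.5 CPM. Col4a1 stood at 479 against 324 CPM and Col1a1, with 20 and 24 UMIs, at 124 against 51.5 CPM. Col4a2 stood at 348.5 against 405 CPM, Col5a3 at 442 against 225 CPM and Col27a1 at 224 against 363 CPM. With a lead of 4 in the class call the log2 ratio of Col5a3 was -0.03, from 82 and 24 UMIs, in place of 0.97. With the background of the class call at the 33rd percentile the log2 ratio of Col15a1 was 0.66 in place of 2.14, from 12 KO UMIs in place of 47, and that of Col5a1 0.31 in place of 1.08, from 13 in place of 32, with 23 KO nuclei in place of 25. Of 12 members with at least 50 UMIs, 6 were at least 2-fold higher and 1 lower in KO, against 12.2% and 15.8% of all genes, and the median log2 ratio was 1.03 beside 0.12. The lower member, Col11a1 (54 and 0 UMIs), reached the minimum through WT alone, and Col1a2 (46 and 61), among the higher, through KO alone. The fibrillar sum was 1482 CPM in WT and 2993 CPM in KO (log2 ratio 1.01, interval 0.84 to 1.18) and the type IV sum 798 and 865 CPM (0.12, interval -0.17 to 0.40).

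In adipocyte-like nuclei collagen levels differed in opposite directions for different chains, and the highest KO to WT ratios of all classes, among members with at least 50 UMIs, were found there. Col5a3, a type V chain, stood at 18.6 CPM (722 UMIs) in WT and 329 CPM (6760 UMIs) in KO, a log2 ratio of 4.15 (interval 4.03 to 4.26), which ran from 3.70 with no filter on nuclei to 4.92 with Leiden clusters. Col15a1 stood at 27.7 CPM (1074 UMIs) in WT and 296 CPM (6077 UMIs) in KO, a log2 ratio of 3.42 (interval 3.32 to 3.51). Both were far above the KO immune-like level, which was 49.8 CPM for Col5a3 and 42.4 CPM for Col15a1. Col5a1, the partner chain of type V, stood at 12.8 and 112 CPM (log2 ratio 3.14, from 2.55 with no filter on nuclei to 3.75 with Leiden clusters), Col20a1 at 11.7 and 101 CPM (3.11) and Col18a1 at 5.59 and 42.8 CPM (2.94), beside KO immune-like levels of 35.4, 16.8 and 8.67 CPM. The WT immune-like levels were 15.1 CPM for Col5a3, 14.25 for Col15a1, 15.7 for Col5a1, 6.27 for Col20a1 and 8.55 for Col18a1. The WT adipocyte-like levels of Col5a1 and Col18a1 were thus below that background, and that of Col5a3 was near it.

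Other fibrillar chains were also higher in KO adipocyte-like nuclei, but near the level found in immune-like nuclei. Col3a1 stood at 44.3 CPM in WT and 107 CPM in KO, against 69.3 and 115 CPM in immune-like nuclei, and Col1a1 at 13.4 and 26.4 CPM, against 25.1 and 29.9 CPM. The log2 ratio of Col3a1 was 1.27, and it was below 1 with a lead of 4 in the class call (0.98), with Leiden clusters (0.79), with no filter on nuclei (0.87) and without the top 10% of doublet scores (0.99). Per Col3a1 UMI, Col1a2 gave 0.551 UMIs in WT and 0.55 in KO adipocyte-like nuclei, and 0.502 and 0.579 in immune-like nuclei. Col5a2 gave 0.771 (interval 0.717 to 0.829) and 0.751 (0.705 to 0.801) in adipocyte-like and 0.568 (0.457 to 0.703) and 0.635 (0.595 to 0.678) in immune-like nuclei, a higher proportion in adipocyte-like nuclei of both libraries. Col5a3 gave 0.42 and 3.08 UMIs per Col3a1 UMI in adipocyte-like and 0.218 and 0.432 in immune-like nuclei, and Col15a1 0.624 and 2.77 in adipocyte-like and 0.206 and 0.368 in immune-like nuclei. The precursor marker list summed to 110 CPM in WT and 258 CPM in KO adipocyte-like nuclei, and to 114 and 230 CPM in immune-like nuclei. All 7 of its genes were detected in each, with Abca8a the most abundant in WT adipocyte-like nuclei at 36.0 CPM. The immune list summed to 135 CPM in WT and 585 CPM in KO adipocyte-like nuclei, with all 10 genes detected, and its part in these values was not tested.

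Other chains were lower in KO adipocyte-like nuclei, some of them also in immune-like nuclei. Col27a1 stood at 211 and 105 CPM (log2 ratio -1.01, interval -1.08 to -0.94, and -0.97 with a lead of 4 in the class call) beside 53.3 and 14.4 CPM in immune-like nuclei. Col4a5 stood at 54.7 and 8.67 CPM (-2.66, interval -2.89 to -2.44) beside 19.7 and 5.53 CPM. Col11a2, a fibrillar chain, stood at 10.5 CPM (407 UMIs) and 1.17 CPM (24 UMIs), and Col10a1, a short chain of growth cartilage, at 4.30 CPM (167 UMIs) and 0.535 CPM (11 UMIs), the latter beside 3.13 and 0.441 CPM in immune-like nuclei. Col4a3, a type IV chain, stood at 8.27 and 2.29 CPM. Col4a1 was higher in KO at 325 and 500 CPM, whereas Col4a2 was lower at 355 and 300 CPM, with log2 ratios of 0.62 (interval 0.58 to 0.66) and -0.25 (interval -0.29 to -0.20). Col12a1 stood at 36.4 and 35.1 CPM.

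Among 31 members with at least 50 UMIs in adipocyte-like nuclei, 13 were at least 2-fold higher in KO, where 22.2% of all genes were, and 5 at least 2-fold lower, where 16% were. Of the 5, Col11a2 (407 and 24 UMIs), Col10a1 (167 and 11) and Col4a3 (321 and 47) reached the minimum through WT alone. Of the 13, Col6a3 (45.2 CPM in KO), Col14a1 (21.3) and Col6a2 (19.7) lay near their KO immune-like levels of 43.4, 23.7 and 17.7 CPM. So did Col3a1 (107 and 115 CPM), Col5a2 (80.2 and 73.2 CPM) and Col1a2 (58.8 and 66.8 CPM). Col6a1 and Col9a3, also among the 13, stood at 14.6 and 2.05 CPM in KO, beside KO immune-like levels of 10.9 and 1.71 CPM. The median log2 ratio of the members was 0.67 beside 0.14 over all genes. Of the 10 fibrillar chains, 8 had enough UMIs, of which 5 were higher and 2 lower, and of 5 type IV chains 0 were higher and 2 lower, Col4a3 and Col4a5. The fibrillar sum was 370 CPM in WT and 820 CPM in KO (log2 ratio 1.15, interval 1.12 to 1.18), the type IV sum 748 and 815 CPM (0.12, interval 0.10 to 0.15) and the multiplexin sum 33.3 and 339 CPM (3.35, interval 3.26 to 3.44). The fibrillar ratio was 1.92 with the immune-like level subtracted and 0.95, below 2-fold, with no filter on nuclei. Col27a1, which was lower in KO, gave 8184 of the 14369 fibrillar UMIs in WT. Relative to the median over all genes, the type IV ratio was -0.01. Over the 7 classes together, 37 of 147 member and class pairs were at least 2-fold higher in KO, beside 10.9% of all gene and class pairs, and 15 were lower, beside 12.9%. With Leiden clusters the counts were 64 and 20 of 170 (11.4% and 15.8%), and with at least 200 UMIs 25 and 5 of 98 (10.1% and 10.7%). Pairs of 1 member share its gene and are not independent. Some of these pairs reached the UMI minimum through the library with the higher level alone, as given for each class.

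**Figure D3:**
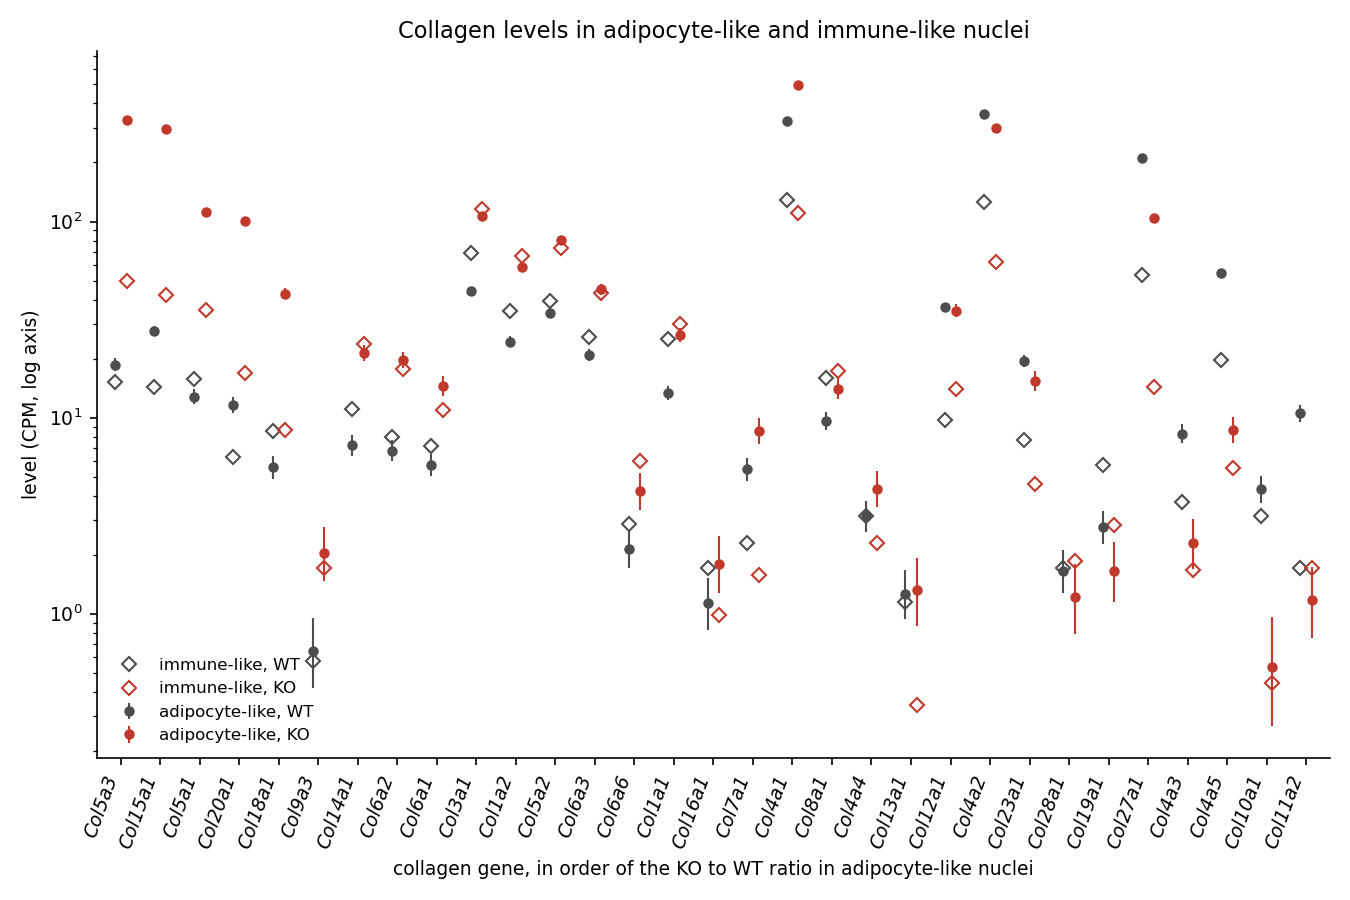
Levels in CPM (log axis) of the 31 members with at least 50 UMIs in adipocyte-like nuclei (filled circles with 95% Poisson intervals), beside the level in immune-like nuclei of the same library (open diamonds), ordered by the KO to WT ratio. Col5a3, Col15a1, Col5a1, Col20a1 and Col18a1 lie well above the KO immune-like level in KO, whereas Col3a1, Col1a2, Col5a2 and Col1a1 lie close to it.

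The shares of nuclei with at least 1 UMI are given with depth. Col5a3 was detected in 8.56% of WT and 64.5% of KO adipocyte-like nuclei, at median depths of 7545 and 6496 UMIs, and in 5.2% and 12.1% of immune-like nuclei, at median depths of 3403.5 and 4176 UMIs. With each nucleus thinned to 1000 UMIs the shares for Col5a3 were 1.05% (interval 0.741% to 1.43%) and 25.8% (24.0% to 27.6%) in adipocyte-like and 1.76% and 3.13% in immune-like nuclei. Thinning left out 7 WT and 56 KO adipocyte-like nuclei. The thinned share for Col15a1 was 2.09% in WT and 19.2% in KO adipocyte-like nuclei, and for Col27a1 it was 18.0% and 8.1%.

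Within the WT library the adipocyte-like nuclei were not uniform. Clusters formed without collagen genes split them, and the genes named here to describe the clusters were chosen after their values were seen. A cluster of 234 WT nuclei with high Slc7a10 (469 CPM), a transporter of white fat cells, and Lep (86.4 CPM) had Col15a1 at 167 CPM and Col5a3 at 67.7 CPM. Its Ucp1 level was 788 CPM. In the main WT cluster of 2832 nuclei, where Slc7a10 stood at 8.99 CPM and Ucp1, the uncoupling protein of brown fat, at 1964 CPM, Col15a1 stood at 4.22 CPM and Col5a3 at 5.23 CPM. The main KO cluster of 1929 nuclei had Slc7a10 at 180 CPM, Ucp1 at 62.0 CPM, Col15a1 at 300.4 CPM and Col5a3 at 342 CPM. Col4a5 was at 25.6 CPM, 56.5 CPM and 8.60 CPM in the same order, Col27a1 at 114, 230 and 109 CPM and Col3a1 at 58.6, 30.9 and 57.7 CPM. A further KO cluster of 226 nuclei, in which Pdgfra, a receptor of precursors, stood at 42.1 CPM against 5.42 CPM in the main KO cluster, had Col3a1 at 158 CPM, Col15a1 at 266 CPM and Col5a3 at 285 CPM. A further WT cluster of 206 nuclei had Ucp1 at 1685 CPM, Slc7a10 at 17.3 CPM, Col15a1 at 7.21 CPM and Col5a3 at 7.79 CPM.

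The share of all collagen UMIs that came from fibrillar chains was highest in precursor and Schwann-like nuclei, lower in mural-like and adipocyte-like nuclei and lowest in endothelial-like nuclei in both libraries. It was 68.5% in WT and 60.4% in KO ASC-like nuclei, 56.5% and 60.8% in Areg-like, 54.4% and 56.2% in PreA-like, 51.3% and 58.2% in Schwann-like, 28.8% and 32.9% in mural-like, 28.7% and 36.2% in adipocyte-like and 18.9% and 22.5% in endothelial-like nuclei. The WT shares of mural-like (interval 27.5% to 30.1%) and adipocyte-like nuclei (28.3% to 29.1%) overlapped, as did those of Areg-like (54.1% to 58.9%) and PreA-like nuclei (52.7% to 56.1%). In KO, Schwann-like nuclei (54.8% to 61.6%) overlapped with all 3 precursor subtypes. Schwann-like nuclei also carried precursor markers, as given above, and the part of these in the Schwann-like share was not tested.

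The type IV share was lower in KO in adipocyte-like (58.0% and 36.0%), endothelial-like (61.0% and 45.1%), Schwann-like (27.6% and 16.8%) and mural-like nuclei (43.5% and 35.9%), and also in ASC-like (9.23% and 6.91%) and Areg-like nuclei (19.4% and 16.8%, with overlapping intervals). It was 20% and 20.5% in PreA-like nuclei. In immune-like nuclei it was 41.9% in WT and 23.3% in KO. These are shares of UMIs, and whether long genes weigh more in them was not tested. Divided by gene body length the fibrillar share was higher in every class. In adipocyte-like nuclei it was then 38.9% in WT and 48.9% in KO, with type IV shares of 40.8% and 20.9%, so that the type IV share was lower in KO on either scale.

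**Figure D4:**
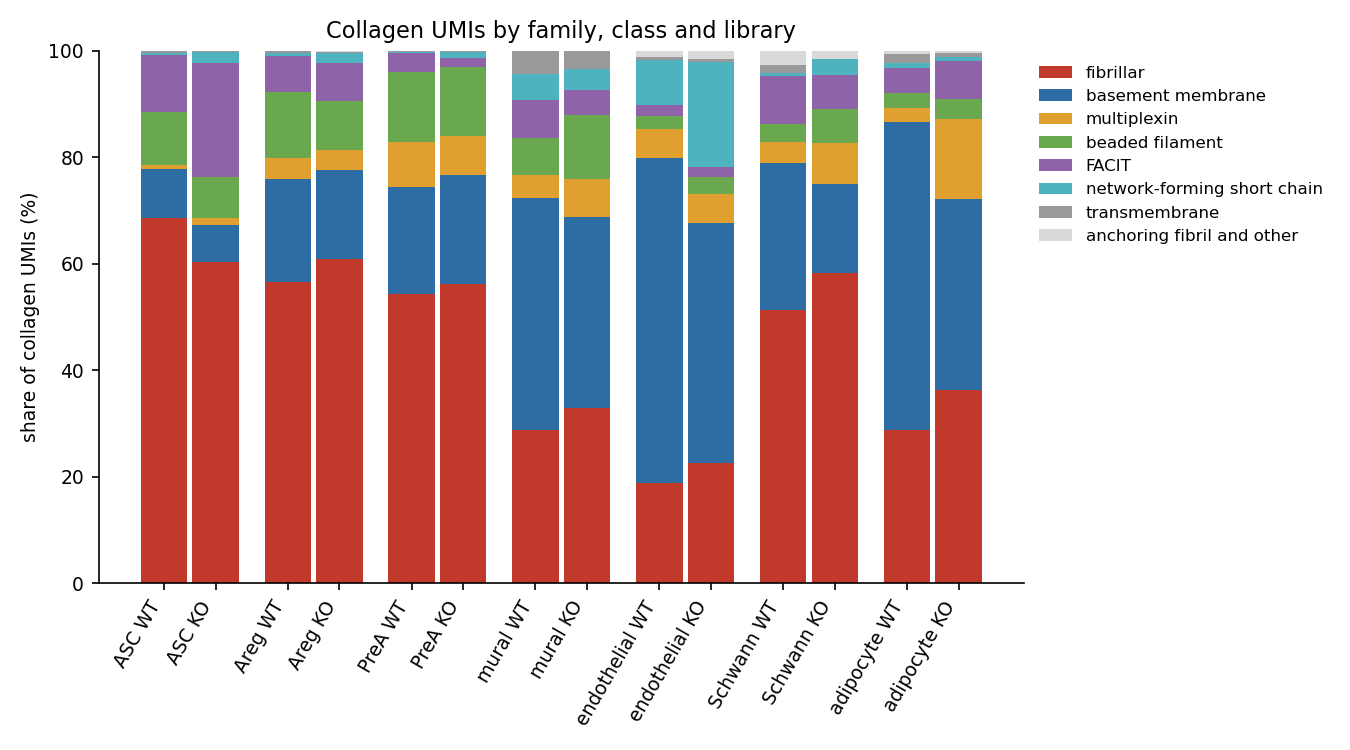
Share of collagen UMIs (y axis, percent) by family, stacked, for each class and library, with type IV chains as the basement membrane family. Fibrillar chains fill over 54% of each precursor bar, type IV chains, not divided by gene length, fill 61.0% of the WT endothelial and 58.0% of the WT adipocyte bar and less of the KO bars, and the multiplexin band is wider in the KO than in the WT adipocyte bar.

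Col4a1 and Col4a2, the partner chains of the common type IV trimer, lie head to head on chromosome 8 with starts 21 bases apart, and their balance differed between the libraries. The ratio of Col4a1 to Col4a2 UMIs was 0.916 (interval 0.894 to 0.938) in WT and 1.67 (1.62 to 1.72) in KO adipocyte-like nuclei, 0.954 and 1.36 in endothelial-like, 1.04 and 2.0 in mural-like, 0.978 and 2.09 in ASC-like, 0.797 and 1.73 in Areg-like, 1.5 and 1.71 in PreA-like and 0.799 and 1.38 in Schwann-like nuclei. The KO ratio was the higher one in all 7 classes, with overlapping intervals in PreA-like and Schwann-like nuclei. In immune-like nuclei the ratio was 1.03 in WT and 1.79 in KO, a log2 difference of 0.79 beside 0.87 in adipocyte-like and 0.19 in PreA-like nuclei.

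**Figure D5:**
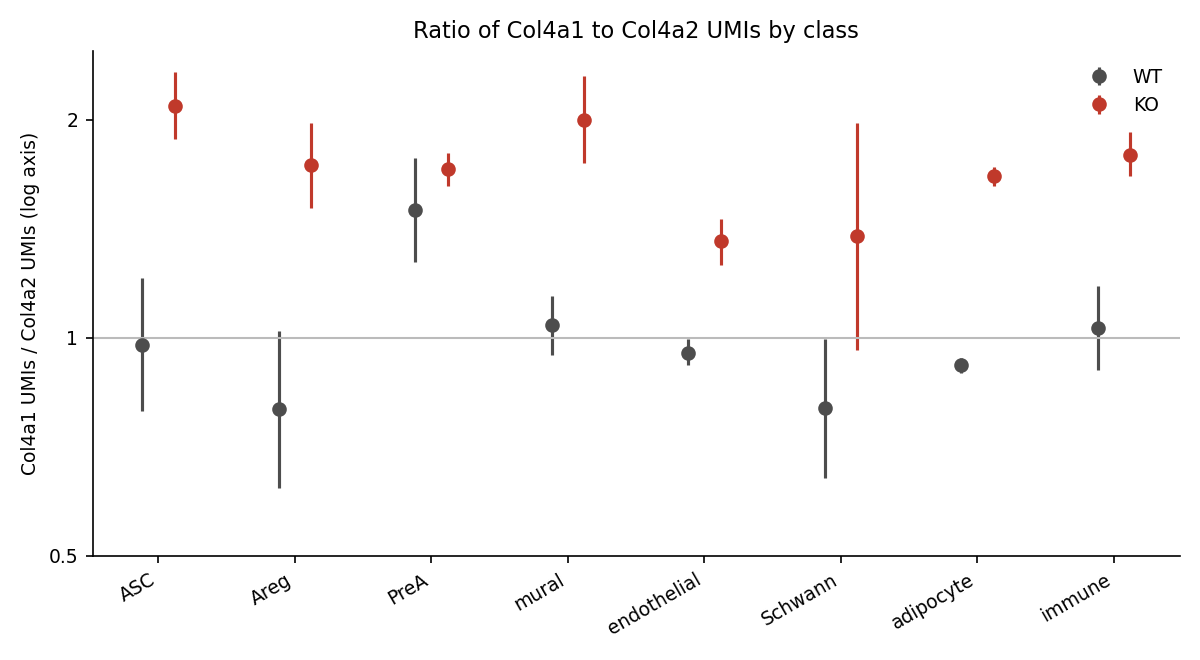
Ratio of Col4a1 to Col4a2 UMIs (log axis) in each class, with 95% intervals as bars and a line at 1. The KO points lie above the WT points in every class, immune-like nuclei included, and the intervals overlap in PreA-like and Schwann-like nuclei.

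The other neighbouring pairs varied less regularly. Col4a3 and Col4a4, type IV chains known from kidney, had 321 and 122 UMIs in WT and 47 and 89 UMIs in KO adipocyte-like nuclei, a ratio of 2.63 against 0.528, whereas in PreA-like nuclei the ratio was 0.423 and 0.684. Col3a1 and Col5a2, whose genes are neighbours on chromosome 1, gave 1.3 and 1.33 in adipocyte-like and 1.14 and 1.15 in PreA-like nuclei, and 1.77 and 1.46 in ASC-like nuclei. Col6a1 and Col6a2, on chromosome 10, gave 0.848 and 0.74 in adipocyte-like and 0.325 and 0.407 in PreA-like nuclei. Col4a5 and Col4a6, on the X chromosome, gave 1.74 and 3.0 in mural-like nuclei, with an interval of 1.61 to 5.95 in KO from 42 and 14 UMIs.

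Genes that build, process or bind collagen were read from a list of 54. In adipocyte-like nuclei 53 of them had at least 50 UMIs, of which 21 were at least 2-fold higher and 6 lower in KO, beside 22.2% and 16% of all genes, with a median log2 ratio of 0.54. Among the receptors and uptake proteins, 5 of 9 were higher and 1 lower. Ddr2, a kinase receptor of fibrillar collagen, stood at 22.2 CPM in WT and 230 CPM in KO, Ddr1, its relative, at 4.12 and 42.5 CPM, and Mrc2, which takes up collagen for breakdown, at 8.37 and 110 CPM, beside KO immune-like levels of 62.0, 7.44 and 23.2 CPM. Of the integrin chains that bind collagen, Itga1 was lower at 211 and 101 CPM and Itga11 higher at 3.87 and 10.7 CPM.

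Among basement membrane partners of type IV collagen in adipocyte-like nuclei, 9 of 15 were higher and 2 lower, beside 22.2% and 16% of all genes. Lamc1, a laminin chain, stood at 282 and 1077 CPM (log2 ratio 1.93, interval 1.90 to 1.97), Nid1, which links laminin to type IV collagen, at 27.3 and 103 CPM, and Hspg2, perlecan, at 40.8 and 101 CPM. Their KO immune-like levels were 234, 38.0 and 29.4 CPM, and Lama2, at 39.4 and 145 CPM, lay below its own of 47.6 and 168 CPM. Agrn, agrin, was at 54.7 and 12.9 CPM. Of 13 modifying enzymes with enough UMIs, 1 was higher and 2 lower, beside the same shares of all genes. P4ha1, a catalytic chain of the prolyl hydroxylase that stabilises the helix, was at 384 CPM in WT and 72.9 CPM in KO (log2 ratio -2.40), and it was also lower in endothelial-like (261 and 97.3 CPM) and mural-like nuclei (333 and 144 CPM), as in immune-like nuclei (229.7 and 105 CPM). Of 12 processing and cross-linking genes in adipocyte-like nuclei 6 were higher and 0 lower, again beside 22.2% and 16% of all genes. Adamts2, which trims fibrillar procollagen, was among the higher ones, at 23.1 and 67.3 CPM.

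In the other classes the partner genes at least 2-fold apart are given beside the shares of all genes higher and lower. In precursors they were 2 higher and 1 lower of 41 in ASC-like (7.25% and 10.4% of all genes), 3 and 0 of 24 in Areg-like (7.44% and 6.83%) and 3 and 2 of 41 in PreA-like nuclei (8.86% and 7.96%). They were 4 and 3 of 29 in mural-like (4.72% and 12.9%), 3 and 5 of 42 in endothelial-like (3.93% and 14.9%) and 2 and 1 of 13 in Schwann-like nuclei (12.2% and 15.8%). Adamts2 stood at 304 and 802 CPM in PreA-like and 95.4 and 323 CPM in mural-like nuclei. Lama2, a laminin chain, stood at 118 and 358 CPM in mural-like and 53.3 and 132 CPM in endothelial-like nuclei, and Nid1 at 392.1 and 719.6 CPM in ASC-like nuclei.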

How the data were processed

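Nuclei of interscapular BAT were profiled with 10x Genomics 3′ v3.1 chemistry, 1 library per genotype. The values the authors deposited are UMI counts, not normalized, made with Cell Ranger (5.0.0 per the submitters' processing notes, which also name Seurat 3.1.1 and mm10). The study's methods give another Cell Ranger version. Whether intronic reads were counted is not given in the sources used here.

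Of 24341 barcodes, 24149 passed 3 filters: a minimum of 200 genes, log UMI and gene numbers no more than 3 median absolute deviations from their library's median, and a mitochondrial share of 10% or less. A nucleus took the class whose marker share, less the 40th percentile of its library and divided by the mean of the top 0.5% of nuclei, was at least 0.1 and at least 2 times the next, from at least 3 UMIs of 2 markers and with a Poisson tail below 0.001. Precursors were split by subtype lists at 2 UMIs and the same lead. The members, gene lists and classes were chosen with earlier results of these data known. The scoring rule was settled after trying 17 settings, judged by their calls against Leiden clusters, and collagen levels by class had been seen under 1 of these, with an iterated background, before the choice. Neighbouring settings are therefore given under the dependence on processing.

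UMIs were summed per class and library and divided by the class total, per 1000000. Ratios carry exact binomial intervals and levels exact Poisson intervals at 95%. Genes at 0 were compared with a floor of 3 counts. The functions recovered known ratios in simulated data. The rule names in each class Col1a1, Col3a1, Col4a1 and Col15a1, the 5 members with the most UMIs and up to 3 with the largest and smallest ratios among those with at least 50 UMIs. For partner genes it names up to 3 on each side with at least 200 UMIs, of which not all are printed. Scrublet called 0% of WT nuclei, where it did not work, and 20.6% of KO nuclei as doublets, and none was removed in the values reported. Clusters came from scanpy 1.11.5 (2000 variable genes without collagens, 30 components, 15 neighbours, resolutions 0.5 and 1). Python 3.11.15, numpy 2.4.6 and scipy 1.17.1 were used.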

Additional observations from a re-analysis of the deposited data

Results flagged for a closer look

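Col12a1 was the member at least 2-fold apart in opposite directions between classes, with counting intervals clear of 0. The KO to WT log2 ratio stood at 1.44 in ASC-like, -2.04 in PreA-like and -1.39 in mural-like nuclei. With a lead of 4 in the class call the PreA-like ratio was -0.35, from 3 and 26 UMIs in place of 51 and 103, and with Leiden clusters the mural-like ratio was 0.25, so that each of the negative ratios was lost under 1 alternative. The difference between classes was not tested across mice, since each genotype had 1 library. Nuclei that took no class also held fibrillar collagen above the immune-like level, at 718 CPM in WT and 1642 CPM in KO, against 256 and 387 CPM in immune-like nuclei. Of the 2412 KO nuclei with no class, 52.6% were called doublets.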

How the results depend on the processing

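No paired analysis was possible because each genotype has 1 library, and for the same reason no library could be left out. Of 140 alternative log2 ratios of the family sums, 129 kept the sign of the reported value. With Leiden clusters in place of marker sums the fibrillar ratio was -0.27 in ASC-like, 1.89 in Areg-like, -0.15 in PreA-like, 1.00 in mural-like and 1.29 in Schwann-like nuclei, the type IV ratio 0.056 in ASC-like, 0.12 in Areg-like, 0.27 in mural-like and 0.081 in adipocyte-like nuclei, and the member and class pairs at least 2-fold higher in KO 64 of 170 (11.4% of all gene and class pairs) in place of 37 of 147 (10.9%). In Schwann-like nuclei the type IV ratio of 0.12 was -0.14 with Leiden clusters and -0.006 relative to the median of all genes. The Leiden classes held 790 WT and 120 KO Areg-like nuclei, where the marker sums called 49 and 125, and 76 and 1017 PreA-like nuclei, where they called 68 and 435. With a lead of 4 in the call the fibrillar ratio was 0.35 in Areg-like, 0.49 in PreA-like, 0.30 in mural-like, 0.82 in Schwann-like and 1.11 in adipocyte-like nuclei, and the type IV ratio -0.10 in PreA-like, -0.27 in endothelial-like and 0.60 in Schwann-like nuclei. Averaging over nuclei gave fibrillar ratios of 0.071 in ASC-like, 0.75 in Areg-like, 0.35 in PreA-like, 0.32 in mural-like, 0.42 in endothelial-like, 0.84 in Schwann-like and 1.22 in adipocyte-like nuclei, and type IV ratios of 0.11 in Areg-like and 0.082 in adipocyte-like nuclei. With the immune-like level subtracted the fibrillar ratio was -0.14 in ASC-like, 0.34 in endothelial-like and 1.92 in adipocyte-like nuclei, and the type IV ratio -0.087 in ASC-like, 0.36 in PreA-like, 0.092 in mural-like, -0.044 in endothelial-like and 0.44 in adipocyte-like nuclei. Relative to the median of all genes the fibrillar ratio was 0.51 in Areg-like, 0.18 in PreA-like and 1.01 in adipocyte-like nuclei, and the type IV ratio in adipocyte-like nuclei -0.014. Without the top 10% of doublet scores the fibrillar ratio was 0.009 in ASC-like and 1.03 in adipocyte-like nuclei. With no filter on nuclei the ratios in adipocyte-like nuclei were 0.95 for fibrillar and 0.086 for type IV chains. With at least 200 UMIs, fewer pairs were tested, and 5 of 98 were at least 2-fold lower (10.7% of all pairs) in place of 15 of 147 (12.9%), and 25 higher (10.1%). The cause of the other shifts was not tested.

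Per kb of gene body the fibrillar share was 81.7% in WT and 76.9% in KO ASC-like, 70.5% and 76% in Areg-like, 66.6% and 68.4% in PreA-like, 43.7% and 46.6% in mural-like, 36.9% and 42.7% in endothelial-like, 63.6% and 71.6% in Schwann-like and 38.9% and 48.9% in adipocyte-like nuclei.

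Settings of the call chosen after seeing the data were also tried. With the background at the 33rd percentile the fibrillar ratio was -0.18 in ASC-like and 1.07 in adipocyte-like nuclei. At the 50th percentile it was 0.38 in PreA-like, 0.65 in mural-like, 0.63 in endothelial-like and 1.28 in adipocyte-like nuclei, and the type IV ratio was 0.085 in mural-like nuclei. With a score minimum of 0.15 it was -0.19 in ASC-like, 0.46 in Areg-like and 1.21 in adipocyte-like nuclei. Median depth among the 7 classes described was lowest in endothelial-like nuclei, at 2207 UMIs in WT and 2088 in KO, and the fewest nuclei were 49 Areg-like in WT and 25 Schwann-like in KO, where few UMIs limit the ratios.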
